A study of Mus musculus with 2 samples.

Results

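The cells described here are the 524 cells of the mouse small intestine that the depositors labelled BECs, for blood endothelial cells. They were taken by that label alone and made up 5.60% (95% exact binomial interval 5.14% to 6.08%, counting error only) of the 9359 labelled cells of the small intestinal library and 524 of the 15377 cells of the whole series. The series holds 1 library of small intestine and 1 of colon. Both came from healthy, untreated mouse tissue that was stripped of epithelium, digested with collagenase and dispase (45 min for small intestine, 60 min for colon) and sorted for live cells negative for CD45 and for EpCAM. Strain, age and the number of animals pooled are not given in the sources used here. About 16000 cells per library were loaded for droplet 3′ sequencing, in which each captured transcript carries a unique molecular identifier (UMI).

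Blood endothelial cells line arteries, capillaries and veins. In the villus, fenestrated capillaries take up absorbed nutrients, and venules are where leukocytes leave the blood, held first by selectins and then by immunoglobulin-type adhesion molecules. Lymphatic endothelial cells (labelled LECs) share the general endothelial genes but form a separate vessel tree specified by the transcription factor Prox1. The comparisons below set the BECs against the LECs and against the 3 fibroblast labels of the same library, which are CD81- FBs, CD81+ Trophocytes and PDGFRahi SEMFs, and then look at capillary, arterial and venous genes among the BECs themselves.

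The BECs held 2192241 UMIs, with a median of 3652 per cell (lowest 824, highest 15815), 1741 detected genes per cell and 2.20% mitochondrial UMIs. The 2498 LECs had a median of 4118 UMIs, the 5845 fibroblasts of the 3 labels a median of 7018. Levels are given as counts per 1000000 UMIs (CPM) summed over the cells of a label, with exact Poisson 95% intervals, and differences as log2 ratios of CPM with exact binomial 95% intervals. These intervals cover counting error only. With 1 library there are no replicates and no test was made, and because the label itself came from the depositors' annotation of these cells, a difference between labels describes them and tests nothing. The libraries shared 21 cell barcodes, 1 of them a BEC barcode.

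All 6 markers of the label were high in the BECs. Plvap, which builds the diaphragms of fenestrae and caveolae, stood at 2576 CPM in BECs (2510 to 2644) and was found in 94.7% of the cells, with 0, 10 and 50 UMIs as the lowest, median and highest count in a cell. Flt1, a receptor for VEGF, was at 1579 CPM and in 92.2% of cells, and the junction proteins Pecam1 and Cdh5 were at 1035 and 673 CPM and in 92.9% and 83.4% of cells. These 4 genes were therefore found in most BECs. Selp (P-selectin, which tethers rolling leukocytes) was at 2578 CPM but in only 37.0% of cells, with a median of 0 and a highest count of 197 UMIs, and Vwf (von Willebrand factor, which binds platelets) was at 372 CPM and in 51.7%. In the fibroblasts, with a median depth of 7018 against 3652 UMIs, the 6 markers were found in 0.36% to 4.29% of cells, the background for these shares.

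**Figure D1:**
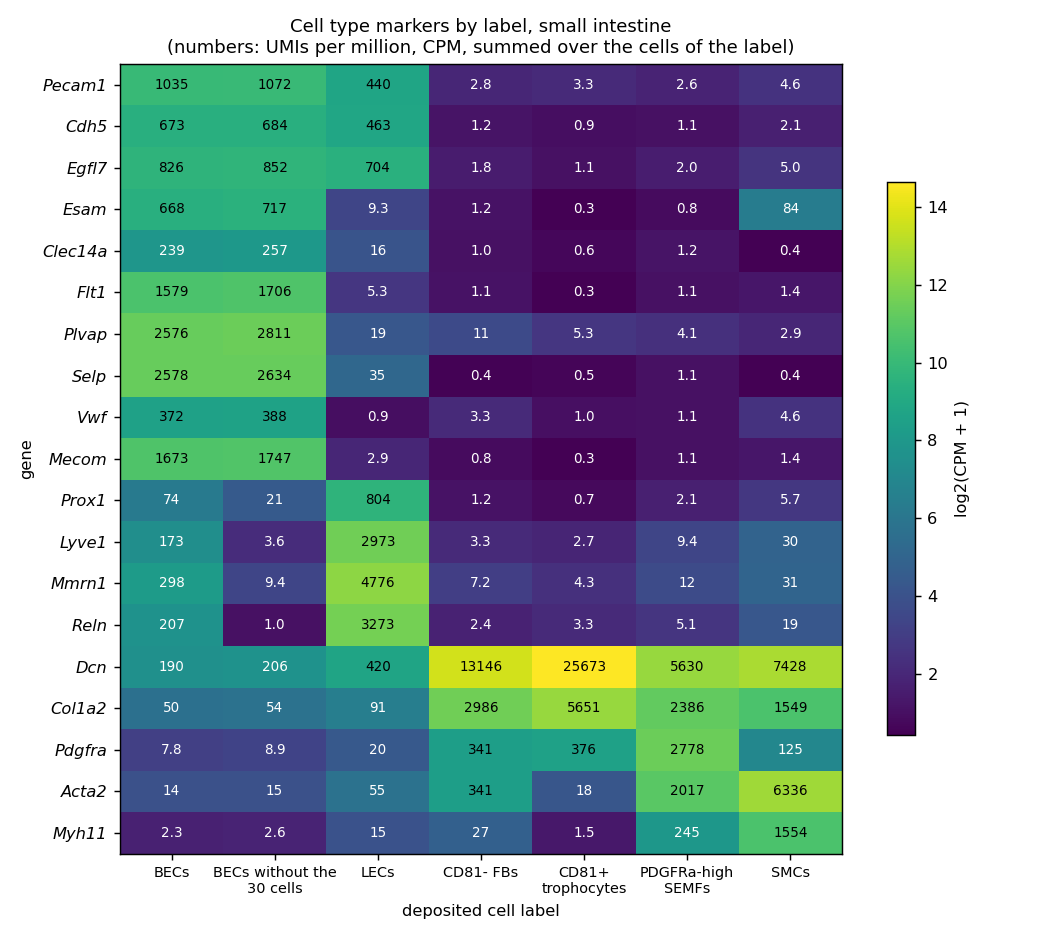
CPM of marker genes (rows) summed over the cells of each deposited label of the small intestine (columns), coloured by log2(CPM + 1). The 6 BEC markers are highest in the BEC columns, from 372 CPM for Vwf to 2578 CPM for Selp. The lymphatic genes in the BEC column are lower once 30 cells, picked by these and other lymphatic genes, are left out.

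Markers of other lineages were present at low levels in BECs. The 8 genes of the fibroblast list were each at least 4-fold lower than in fibroblasts, from Adamdec1 (log2 ratio -5.66) to Pdgfra (-6.57), with Dcn (decorin) at 190 CPM against 16484 CPM. Among 10 immune genes, 5 had 0 UMIs (Ptprc, Tyrobp, Cd3e, Cd79a and C1qa, each allowing up to 1.37 CPM), while Srgn, a proteoglycan that endothelium also makes, was at 790 CPM. Igkc, an immunoglobulin gene, was at 62.9 CPM in BECs, 61.6 CPM in LECs and 102 CPM in fibroblasts. Of 10 mural genes, summed at 69.3 CPM in BECs and 14853 CPM in SMCs, the highest were Tagln (25.1 CPM), Rgs5 (17.3 CPM) and Acta2 (14.1 CPM), and Higd1b had 0 UMIs. Of the epithelial genes, Krt19 had 42 UMIs (19.2 CPM) and Epcam 1.

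The lymphatic transcripts sat in a small set of cells. Prox1, Lyve1, Ccl21a, Flt4, Mmrn1 and Reln together had 0 UMIs in 376 BECs, 1 to 4 in 118 and at least 5 in 30 (5.73%). Those 30 cells held from 8 to 187 such UMIs (median 87), and 94.8% of all lymphatic UMIs of the label. No BEC lay between 11 and 28. The 30 cells were also deep, with a median of 8990 UMIs against 3505 in the other 494, and 25 of them were among the 6% of library cells with the highest Scrublet score (a score for likeness to simulated doublets), as were 10 of the other 494. Scrublet's own threshold marked only 85 of the 9359 cells, 7 of these 30 among them. The 6 BEC markers summed to 5446 CPM in the 30 cells and to 9296 CPM in the other 494, against 963 CPM in LECs, and the 10 genes of the lymphatic list summed to 10691, 179 and 23042 CPM. Summed over the 30 cells, markers of both endothelial lineages were thus present, but single cells differed. One cell with 173 lymphatic UMIs had 0 Plvap UMIs among 12790, and another with 145 had 15 among 14383. The 30 cells keep their label in the values below, and results that rest on them are given with and without them.

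**Figure D2:**
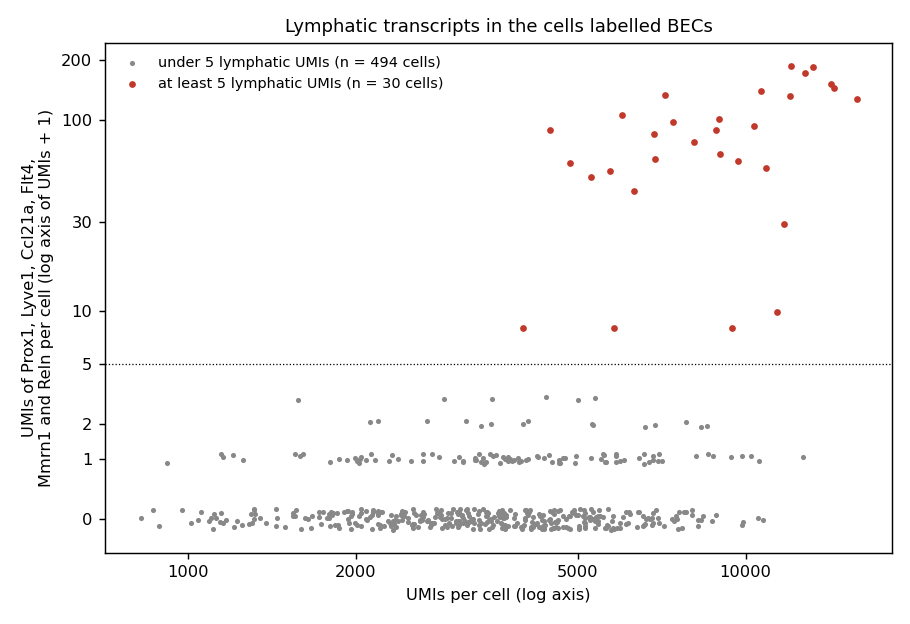
Each point is 1 of the 524 BECs, placed by its total UMIs (log axis) and by its UMIs of 6 lymphatic genes (log axis of UMIs + 1). The 30 cells with at least 5 such UMIs, in red, range from 8 to 187 and lie at the deep end of the label.

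Against LECs, the BECs were highest by rank in Mecom, Tmem252, Flt1, Ly6c1 and Plvap. Among 12558 genes with at least 20 UMIs over both labels, 698 (5.56%) were at least 4-fold higher in BECs and 824 (6.56%) at least 4-fold lower, and the median log2 ratio was -0.21. The widest gap by the ranking used was that of Mecom, a zinc finger transcription factor, at 1673 CPM in BECs and 2.86 CPM in LECs (log2 ratio 9.19, 8.69 to 9.74). Flt1 was at 5.26 CPM in LECs (8.23, 7.86 to 8.63) and Plvap at 18.6 CPM (7.12, 6.92 to 7.32). Tmem252, a membrane protein, was at 1423 against 3.12 CPM, and Ly6c1, a surface protein of many mouse endothelia, at 1388 against 4.73 CPM. All of these were under 20 CPM in LECs. The other genes ranked highest were Selp (6.20), the atypical chemokine receptor Ackr1 (9.67) and the adhesion receptor Adgrg6 (9.83).

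The general endothelial genes did not separate the lineages in this way. Of 18 pan-endothelial genes, 4 were at least 4-fold higher in BECs than in LECs and none at least 4-fold lower, with a median log2 ratio of 0.47. The 4 were the junction molecule Esam (668 against 9.28 CPM), Clec14a (239 against 16.4 CPM), Cd34 (255 CPM, log2 ratio 4.40) and the phosphatase Ptprb (1610 against 398 CPM). Cdh5 was at 673 and 463 CPM, Egfl7 at 826 and 704 CPM and Mmrn2 at 487 and 473 CPM, so their ratios lay between 0.04 and 0.54 on the log2 scale.

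Among the 8 genes ranked lowest in BECs were 4 of the lymphatic list, and the size of all 8 differences moved with the 30 cells. The lymphatic markers Ccl21a (a chemokine), Lyve1 (a hyaluronan receptor), Mmrn1 and Reln were at 416, 173, 298 and 207 CPM in BECs and at 7839, 2973, 4776 and 3273 CPM in LECs. Their log2 ratios ran from -4.24 to -3.99 and became -9.88, -9.67, -8.99 and -11.62 without the 30 cells. These 4 are among the 6 genes that picked the 30 cells, so their fall was set by that choice. Pard6g, Eda, Mrc1 and Maf, the other genes ranked lowest, were not used to pick the cells. They went from between -4.66 and -3.81 to between -8.71 and -6.67, with Pard6g and Mrc1 then at 0 UMIs and given as bounds. Prox1, also among the 6 genes, was at 74.4 CPM, and at 20.9 CPM without the 30 cells, against 804 CPM in LECs. Of the 10 lymphatic genes, 9 were at least 4-fold lower in BECs, and 10 without the 30 cells, but this list holds the 6 genes that picked them.

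Against the pooled fibroblasts, nearly all general endothelial genes were higher in BECs. Of 15310 genes, 1155 (7.54%) were at least 4-fold higher in BECs and 1626 (10.6%) at least 4-fold lower, with a median log2 ratio of -0.11. Of 18 pan-endothelial genes, 17 were at least 4-fold higher, with a median log2 ratio of 8.36. The exception was Cd34, at 255 CPM in BECs and 410 CPM in fibroblasts. The genes ranked highest were Fabp4 (a fatty acid carrier, 4331 against 3.74 CPM), Selp (2578 against 0.55 CPM), Mctp1 (2008 against 1.56 CPM), Mecom, Flt1, Plvap, Ptprb and Tmem252. The genes ranked lowest were the matrix genes Lama2 (13.7 against 2315 CPM), Dcn and Col1a2 (49.7 against 3852 CPM), and Pid1 (11.4 against 1407 CPM). Each fibroblast label taken alone gave like shares at 4-fold, namely 7.85% higher and 11.2% lower for CD81- FBs, 8.6% and 10.5% for trophocytes and 8.48% and 12.7% for SEMFs.

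**Figure D3:**
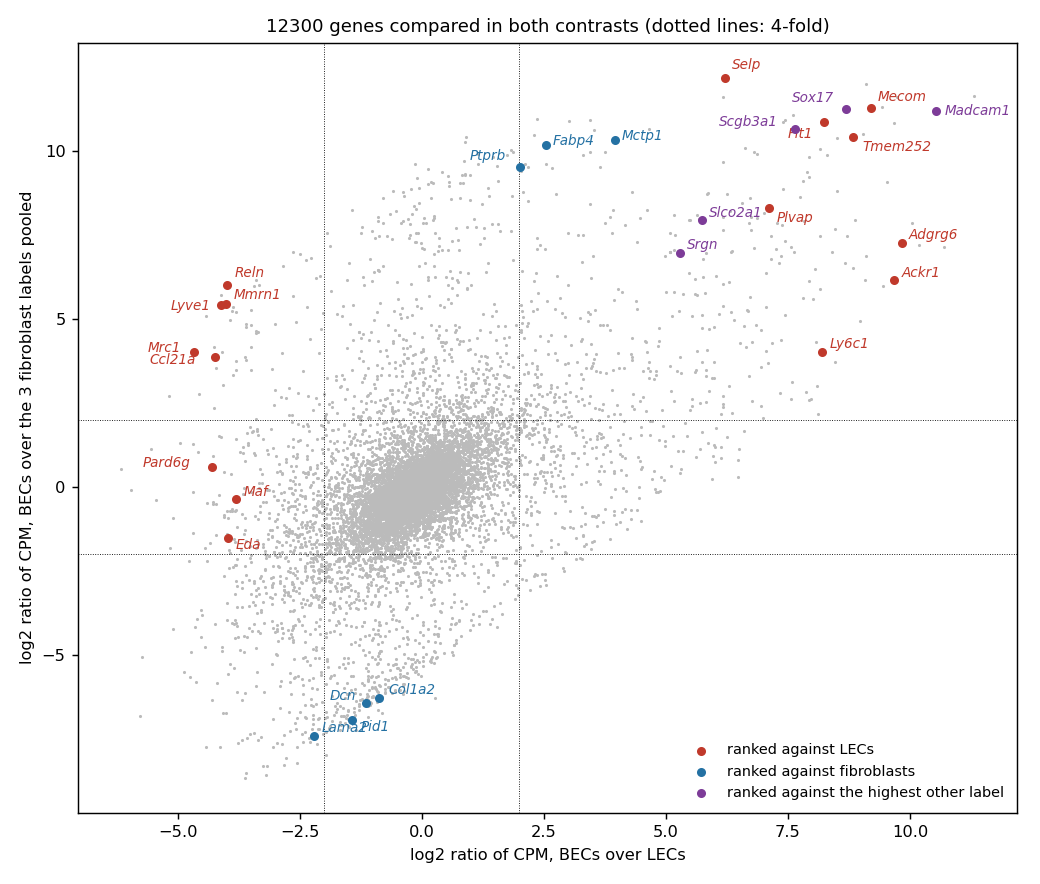
Each gene compared in both contrasts is a point, placed by its log2 ratio of CPM of BECs over LECs and of BECs over pooled fibroblasts, with the ranked genes coloured and named. Mecom, Flt1, Plvap, Selp and Madcam1 lie at the upper right, more than 4-fold higher in both, and Lyve1, Mmrn1 and Reln at the upper left.

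Set against whichever of the LECs, the 3 fibroblast labels and the smooth muscle label (SMCs) was highest, the genes ranked first were Mecom, Tmem252, Flt1, Plvap and Selp, followed by Madcam1, Scgb3a1, Slco2a1, Sox17 and Srgn. Madcam1, the gut vessel ligand for the lymphocyte integrin alpha4beta7, was at 395 CPM in BECs and had 0 UMIs in LECs and SMCs. Its nearest level was in trophocytes, 10.21 lower on the log2 scale. Scgb3a1, a small secreted protein, was at 463 CPM against 2.32 CPM in LECs. The prostaglandin transporter Slco2a1 was at 1071 against 20.1 CPM in LECs, and Sox17, a transcription factor of arterial endothelium, at 295 against 0.71 CPM in LECs.

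Transcription factors split into those shared with LECs and those that were not. Of 28 measured, 8 were at least 4-fold higher in BECs than in LECs (Sox7, Sox17, Klf2, Mecom, Meox2, Tcf15, Epas1 and Nkx2-3) and 2 lower (Prox1 and Foxc2). The ETS factors, which drive much endothelial expression, were alike in size: Erg was at 204 and 128 CPM, Fli1 at 420 and 344 CPM and Ets1 at 339 and 348 CPM in BECs and LECs. Nkx2-3, a homeobox factor of gut and spleen vessels and of gut mesenchyme, was at 536 CPM in BECs and 7.67 CPM in LECs, but at 236 CPM in fibroblasts and 544 CPM in SMCs. Klf2, a factor induced by shear flow, was at 4445 CPM in BECs, 946 CPM in LECs and 665 CPM in fibroblasts. Against fibroblasts 22 of 27 were at least 4-fold higher and none at least 4-fold lower.

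VEGF and angiopoietin genes went both ways. Of 11 VEGF and angiopoietin genes, 3 were at least 4-fold higher in BECs than in LECs (Flt1, Nrp1 and the ligand Vegfc) and 2 lower (Flt4, the VEGF-C receptor, and the ligand Pgf), and 6 lay between (list median -0.39). Nrp1, a co-receptor, was at 443 CPM in BECs and 6.33 CPM in LECs, and its paralogue Nrp2 at 379 and 1499 CPM. Kdr, the main VEGF receptor, was at 441 CPM in BECs and at 815 CPM in LECs. Vegfc was at 290 CPM in BECs and 5.00 CPM in LECs. Of 11 Notch genes, 5 were at least 4-fold higher than in LECs (Notch4, Jag1, Jag2, Hey2 and Nrarp) and 10 higher than in fibroblasts. The Notch ligand Dll4 was at 83.9 CPM in BECs and 87.8 CPM in LECs.

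Genes for lipid and nutrient handling were split as well. Of 11, 6 were at least 4-fold higher than in LECs, among them Fabp4 (4331 against 745 CPM), Fabp5 (304 against 13.7 CPM) and the fatty acid transporter Cd36 (862 against 34.4 CPM). Gpihbp1, which carries lipoprotein lipase across capillary endothelium, went the other way, at 48.4 CPM in BECs and 348 CPM in LECs (log2 ratio -2.85, -3.14 to -2.57). It was found in 8.78% of BECs and 64.9% of LECs, and 91.2% of the LECs with a Gpihbp1 UMI also had a Prox1 UMI, against 83.9% of those without. These LECs were not compared at 1 depth, and Kdr gave a like gap (90.2% against 73.2%). The part of depth in it was not tested. Lpl, the lipase, was at 16.4 CPM in BECs and 119 CPM in LECs, and at 6.78 CPM without the 30 cells.

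The segment lists themselves also differed between the lineages. Against LECs, 9 of 15 arterial genes were at least 4-fold higher in BECs and none lower (median log2 ratio 3.03), among them Gja5, a connexin, at 46.5 CPM against 0 UMIs. Of 15 venous genes 6 were higher and none lower (0.90), and of 15 capillary genes 7 were higher and 3 lower (1.51), the 3 being Gpihbp1, Btnl9 and Lpl. Without the 30 cells, 1 arterial gene and 1 venous gene (Nrp2, log2 ratio -2.31) were at least 4-fold lower. Of 14 genes of junctions, caveolae and fenestrae 5 were higher and none lower (0.41), and of 8 tip cell genes 3 were higher and 2 lower (-0.65). Basement membrane genes were split 3 and 3 of 13 against LECs, and 1 was higher and 3 lower than in fibroblasts (4 lower without the 30 cells). The lymphatic list was 8 higher and 1 lower of 10 against fibroblasts, and 3 higher and 1 lower without the 30 cells. The 6 genes that picked those cells are in this list.

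Genes of leukocyte traffic were mostly higher in BECs than in LECs, and those of vessel tone and of signalling to neighbours in part. Of 13 adhesion and homing genes, 8 were at least 4-fold higher (Selp, Sele, Vcam1, Madcam1, Cd34, Ackr1, Jam2 and Cxcl12) and 1 lower, the cytokine Il33 (72.5 against 453 CPM). Of 17 genes of tone and haemostasis, 7 were at least 4-fold higher, 2 lower and 8 between, with the vasoconstrictor Edn1 at 300 against 4.19 CPM, the converting enzyme Ace at 270 against 5.00 CPM and the ectonucleotidase Entpd1 at 549 against 2.86 CPM. Of 15 angiocrine signals, 7 were at least 4-fold higher, 3 lower and 5 between. Kitl, the ligand of Kit, was at 683 CPM in BECs, 15.1 CPM in LECs and 139 CPM in fibroblasts, and Pdgfb, which recruits mural cells, at 122, 11.2 and 0.12 CPM. Rspo3 and Wnt2, at 31.5 and 9.12 CPM in BECs, were at 3.13 and 0.52 CPM without the 30 cells, against 281 and 214 CPM in LECs. Of 9 MHC genes, none was at least 4-fold higher than in LECs and H2-Ab1 was lower (10.0 against 58.0 CPM). Without the 30 cells 2 were lower, with H2-Eb1 added (log2 ratio -2.25).

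**Figure D4:**
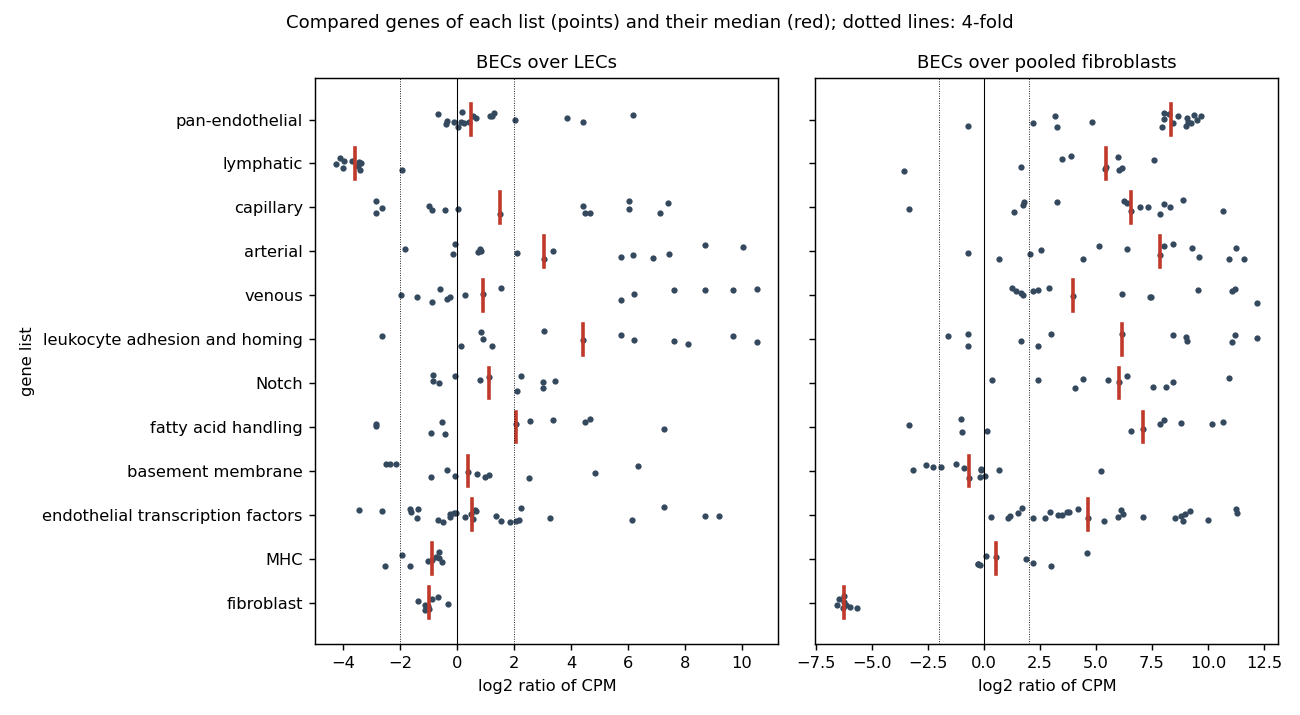
Log2 ratios of CPM of the compared genes of 12 lists (points) with the list median (red bar), BECs over LECs on the left and BECs over pooled fibroblasts on the right. Pan-endothelial genes lie near 0 against LECs (median 0.47) and far to the right against fibroblasts (median 8.36).

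Vessel segments were then looked for among the BECs. Each cell was given a score for 3 capillary genes (Rgcc, Kdr and Gpihbp1), 3 arterial genes (Sema3g, Hey1 and Gja4) and 3 venous genes (Selp, Vwf and Nr2f2), scaled to the mean of all BECs, and was put in the class of its highest score. The capillary class held 165 cells (31.5%, 27.5% to 35.7%), the arterial class 150 (28.6%, 24.8% to 32.7%) and the venous class 198 (37.8%, 33.6% to 42.1%), and 11 cells had no class. Of the 513 classed cells, 42 had a highest score under 1.5 times the next. The venous cells were deeper, with a median of 5046 UMIs against 2788 in capillary and 3058 in arterial cells. The 30 cells with lymphatic transcripts fell 13 to the capillary, 8 to the arterial and 9 to the venous class. The 9 genes that formed the classes are left out of what follows, and of the 8831 other genes compared, 7.98% were at least 2-fold higher in the capillary class than in the other classed cells, 6.1% in the arterial and 5.81% in the venous class.

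Most genes of the venous list were higher in the venous class, several of them adhesion molecules. Of the 12 remaining venous genes, 9 were at least 2-fold higher in it. Of 12 leukocyte adhesion and homing genes that formed no class, 5 were (Sele, Icam1, Vcam1, Madcam1 and Ackr1). These 5 are also in the venous list and among its 9. Cd34, Podxl and Cxcl12 were highest in capillary and Icam2 and Pecam1 in arterial cells. Ackr1, which binds chemokines at the venule wall, was at 1027 CPM (968 to 1089.9) in venous, 24.0 CPM in capillary and 3.93 CPM in arterial cells, and in 84.8%, 1.82% and 0.67% of the cells. Madcam1 was at 797, 15.4 and 3.93 CPM and in 82.8%, 2.42% and 0.67% of cells. Sele (E-selectin) was at 319 CPM and in 34.3% of venous cells, with 0 UMIs in the other classes, which makes it at least 6.86 higher on the log2 scale. Lrg1, a secreted glycoprotein, was at 827, 85.7 and 21.6 CPM, Icam1, an integrin ligand, at 1440, 249 and 320 CPM, and Vcam1, another, at 397, 68.6 and 51.1 CPM. In BECs without a UMI of Prox1, Lyve1, Dcn, Col1a2 or Ptprc, Vcam1 and Icam1 were 2.30 and 2.60 higher in the venous class on the log2 scale, and Lrg1, Ackr1 and Madcam1 4.09, 5.75 and 6.79 higher. Ephb4, often used as a venous gene, was not among the 9, at 93.2, 137 and 88.4 CPM.

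Other genes ranked highest for the venous class were Hdc, which makes histamine (583 CPM against 20.6 in capillary cells and 0 UMIs in arterial cells), and Adgrg6 (963, 34.3 and 35.4 CPM). The tight junction gene Cldn5 was at 1416 CPM and in 91.4% of venous cells, against 127 CPM and 12.1% in capillary and 361 CPM and 23.3% in arterial cells. In the 290 BECs without a UMI of Prox1, Lyve1, Dcn, Col1a2 or Ptprc, it was at 1387, 36.0 and 344 CPM. Meox2, a homeobox factor, was at 169, 13.7 and 37.3 CPM, Procr, the protein C receptor, at 450, 44.6 and 57.0 CPM, and Calcrl, a receptor subunit for vasodilator peptides, at 1270, 540 and 236 CPM. Nkx2-3 was nearly even over the classes, at 576, 495 and 503 CPM. Krt19, a keratin, had 40 of its 42 UMIs in venous cells, of which 13.6% held it.

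Cells with and without Selp were also compared at 1 depth, since the share of cells with a UMI moves with depth. After thinning to 2000 UMIs per cell, 445 BECs were kept (79 were shallower) and 185 of them had a Selp UMI. Madcam1 was found in 71.4% (64.3% to 77.7%) of these 185 and in 2.69% of the 260 without Selp, Ackr1 in 73.0% and 2.31%, Sele in 25.4% and 0.38%, and Icam1 in 74.1% and 22.3%. In the other direction, Car4 was found in 0 of 185 and 12.7% of 260, Gja5 in 0.54% and 12.7%, and Cxcl12 in 4.86% and 51.5%. Plvap was in 98.9% and 88.5%. In thinned fibroblasts Madcam1 was found in 0.051% and Ackr1 in 1.48% of cells.

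The promoter of Madcam1 is shown because Madcam1 was the leukocyte adhesion gene with the largest log2 ratio (10.21) to the highest of the other labels compared. The letters searched are 1 form of those bound by NF-kB, a factor of inflammatory gene induction. Other forms were not searched, so a promoter without a match may still hold a site. Of the 15 venous genes, 12 are in the RefSeq promoter table (GRCm38.p6, 250 bases before to 50 after each start site), and Madcam1 was the 1 gene among them with a match (3 G, any 2 bases, 3 T and 2 C, on either strand), a search chosen after the values were seen. The window lies at chr10:79664309-79664608 on the plus strand, and its 2 matches, both on the minus strand and in capitals, start 83 and 70 bases before the start site.
Madcam1: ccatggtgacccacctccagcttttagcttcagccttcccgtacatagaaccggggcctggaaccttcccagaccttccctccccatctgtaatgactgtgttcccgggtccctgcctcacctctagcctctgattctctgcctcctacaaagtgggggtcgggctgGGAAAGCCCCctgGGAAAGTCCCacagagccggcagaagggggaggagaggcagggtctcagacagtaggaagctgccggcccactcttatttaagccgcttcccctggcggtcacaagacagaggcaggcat
Of all 32851 promoters in the table, 1.63% held a match. Of the 6 BEC markers, only Flt1 and Selp are in the table, and neither held the ETS letters CAGGAAG or CCGGAAG, which 20.9% of promoters hold. Selp and Sele are neighbours on chromosome 1, with start sites 67.0 kb apart.

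Within the venous class, Sele marked 68 of the 198 cells, a split made after the values were seen. These 68 had a median of 5606 UMIs and the other 130 a median of 4732. Their level of Selp was 6676 CPM against 4396 CPM, while Madcam1 (878 and 748 CPM), Ackr1 (1102 and 982 CPM), Icam1 (1474 and 1420 CPM) and Lrg1 (850 and 813 CPM) differed by at most 0.23 on the log2 scale. Vcam1 was lower where Sele was found, at 242 against 492 CPM (log2 ratio -1.03, -1.37 to -0.70), with 21.0% of the UMIs of the second group from 1 cell. Among the genes ranked highest with Sele were the chemokine Cxcl10 (414 against 121 CPM) and the cytokine receptor subunit Csf2rb (227 against 66.0 CPM), and among the lowest the heat shock genes Hspa1a (168 against 876 CPM) and Hspa1b (274 against 961 CPM). Over the 3441 genes compared the median log2 ratio was -0.01.

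Most genes of the arterial list were higher in the arterial class. Of the 12 remaining arterial genes, 10 were at least 2-fold higher in it, and Sox17 lay just under, at 0.99 on the log2 scale. Gja5, the connexin of arterial endothelium, was at 177 CPM in arterial and 20.6 CPM in capillary cells, with 0 UMIs in venous cells. Gkn3, a secreted gastrokine, had all its 68 UMIs in arterial cells (134 CPM, 15.3% of the cells). Bmx, a kinase, was in 37.3%, 4.85% and 5.56% of arterial, capillary and venous cells. Edn1 was at 760, 197 and 145 CPM in the same order, and Plat, the tissue plasminogen activator, at 837, 396 and 40.1 CPM. Of 13 genes of vessel tone and haemostasis that formed no class, 3 (Edn1, Ace and Plat) were at least 2-fold higher in the arterial class, as was none of 14 genes of junctions, caveolae and fenestrae. The elastic fibre gene Fbln5 was at 900, 139 and 337 CPM, so that here the venous and not the capillary class came second. The genes ranked highest were Efna5 (324, 30.9 and 3.73 CPM), Nebl, Gja5, Kcne3 and Dkk2.

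Notch genes followed the arterial class. Of the 10 that formed no class, 7 were at least 2-fold higher in it and 8 of 10 were highest there, where 34.7% of all genes were highest. Dll4 was at 230 CPM in arterial, 105 CPM in capillary and 3.73 CPM in venous cells, and Jag1 at 257, 92.6 and 42.0 CPM. Both are also in the arterial list and were counted there. The target gene Nrarp was at 120, 39.4 and 16.8 CPM. The growth factor Igf2 had 92.3 CPM in arterial and 6.86 CPM in capillary cells and 0 UMIs in venous cells. Vegfc was at 603, 108 and 245 CPM and Epas1, a hypoxia factor, at 1049, 693 and 393 CPM.

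The capillary class was less sharply set off by its own list. Of the 11 remaining capillary genes, 4 were at least 2-fold higher in it (Car4, Cd300lg, Ramp3 and Lpl), and 3 of 10 without the 30 cells with lymphatic transcripts. The class was the highest of the 3 for 7 of the 11, against 38.6% of all genes. Car4, a carbonic anhydrase at the capillary surface, was at 156 CPM in capillary and 15.7 CPM in arterial cells with 0 UMIs in venous cells, and was found in 30.9% of capillary cells. Cd300lg was at 153 and 31.4 CPM with 0 UMIs in venous cells. Plvap was at 2799, 2130 and 2675 CPM in capillary, arterial and venous cells and Cd36 at 1275, 583 and 756 CPM, so both ran through all classes. Rbp7 was highest in arterial cells, at 106 against 51.4 CPM. Flt1 was at 2823, 1784 and 806 CPM and Nrp1 at 962, 407 and 171 CPM. The genes ranked highest were Car4, Arap2, Gm12002, Cd300lg and Dlg2. Lymphatic genes were also higher in this class, 6 of 9 at least 2-fold, and it held 13 of the 30 cells picked by 6 of the lymphatic genes. Without the 30 cells, 3 lymphatic genes were compared, with 1 at least 2-fold higher in the capillary and 2 in the venous class. Of the 3 genes that formed the capillary class, Kdr and Gpihbp1 were higher in LECs than in BECs, and Rgcc was lower.

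Most basement membrane genes were higher in the capillary class. The chemokine Cxcl12 was at 1256 and 552 CPM in capillary and arterial cells and was found in 74.5% of capillary and 10.1% of venous cells. Esm1, a gene of VEGF-stimulated tip cells, was at 312, 96.3 and 7.46 CPM in capillary, arterial and venous cells. Of 6 tip cell genes, 3 were highest in capillary cells (Esm1, Pdgfb and Nid2), where 38.6% of all genes were highest. Kcne3 and Dll4 were highest in arterial cells and Angpt2 in venous cells. Nid2 is also in the basement membrane list. Of 13 basement membrane genes, 9 were at least 2-fold higher in capillary cells. Col4a1 was at 1258, 544 and 238 CPM, Col4a2 at 773, 265 and 102 CPM and Col15a1 at 427, 134 and 75.5 CPM. Fibroblast genes, which fibroblasts hold at far higher levels, were also highest there, 7 of 7 at least 2-fold higher. Dcn was at 233, 112 and 76.4 CPM in capillary, arterial and venous cells. The share of cells with a Dcn UMI was lowest in capillary cells (23.6%, 32.0% and 34.8%). Their median depth was also the lowest (2788, 3058 and 5046 UMIs), and the part of depth in these shares was not tested. In the BECs without a UMI of Prox1, Lyve1, Dcn, Col1a2 or Ptprc, 8 of 12 basement membrane genes were at least 2-fold higher in the capillary class, and Col4a1 was at 1445, 562 and 212 CPM.

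**Figure D5:**
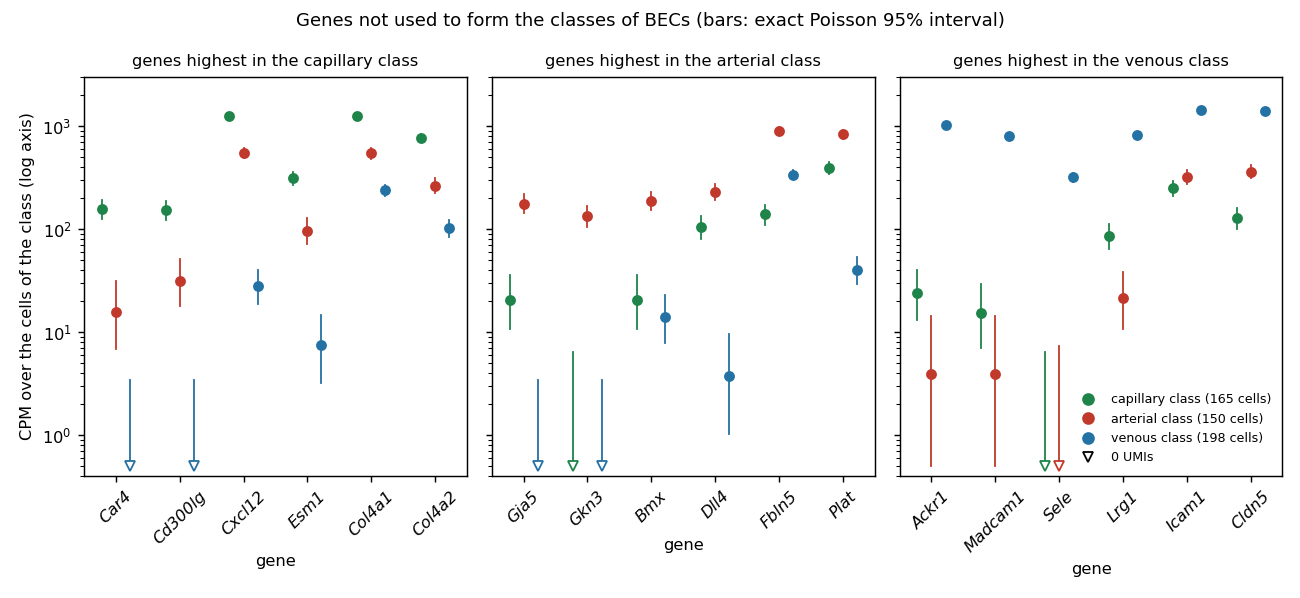
CPM (log axis) of 6 genes highest in each class, over the cells of the capillary, arterial and venous classes, with exact Poisson 95% intervals and open triangles for 0 UMIs. None of the 18 genes was used to form the classes, and Sele, for example, is at 319 CPM in venous cells and at 0 UMIs in the others.

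Immediate early genes, which respond within minutes to stimuli and to tissue handling, were found in most BECs. Fos was at 5991 CPM in BECs, 2035 CPM in LECs and 2210 CPM in fibroblasts, and was found in 95.2% of BECs. Of 13 immediate early and stress genes, 3 were at least 4-fold higher in BECs than in LECs (Atf3, Ier3 and Zfp36), and 3 were against pooled fibroblasts. Against the fibroblast labels taken apart the count was 1 for trophocytes, 7 for CD81- FBs and 11 for SEMFs. Among the classes, 11 of the 13 were highest in venous cells, where 26.7% of all genes were highest, while Hspa1a and Hspa1b were highest in arterial cells. Ier3 was at 2759, 693 and 919 CPM and Zfp36 at 5381, 1755 and 2941 CPM in venous, capillary and arterial cells. The class with the 5 adhesion genes was thus also the deepest and the one where these 11 genes were highest, and the part of depth or of these genes in the adhesion gene levels was not tested.

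The colon library held 53 cells labelled BECs (269665 UMIs), of which 45 carried the sublabel CapECs, 4 ArtECs and 4 VenECs. With 1 library per tissue and different digestion times, the values are set side by side only. Plvap was at 2043 CPM in colon and 2576 CPM in small intestinal BECs, Flt1 at 2600 and 1579 CPM and Pecam1 at 942 and 1035 CPM. Selp was at 100 CPM in colon, 22 of its 27 UMIs from 1 cell, against 2578 CPM, Ackr1 at 70.5 against 510 CPM and Lrg1 at 44.5 against 432 CPM. The capillary genes Rgcc (679 against 152 CPM), Rbp7 (352 against 38.8 CPM), Cd300lg (289 against 48.4 CPM) and Car4 (145 against 45.2 CPM) had the higher value in colon. Of the 15 genes of the capillary list 10 did. Plvap, Cd36 (441 against 862 CPM), Prkg1 (178 against 809 CPM), Tmem100 (40.8 against 190 CPM) and Aplnr (48.2 against 58.4 CPM) had the lower value there. The share of all genes with the higher value in colon is not given here, so this count has no background. Among the 10, Lpl had 18 of its 26 colon UMIs from 1 cell and Gpihbp1 10 of 26. The intervals of the log2 ratio spanned 0 for Btnl9 (-0.75 to 2.48) and Aplnr (-1.22 to 0.55). Madcam1, Sele and Gkn3 are not among the genes of the colon table.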

How the data were processed

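Single cells of 1 small intestinal and 1 colon library were analysed from the deposited count matrices (UMI counts per gene and cell) and cell labels. Reads were processed with Cell Ranger 7.1.0 and Seurat 4 on mm10, per the submitters' processing notes, and cell filters are not given in the sources used here. The deposited natural log values equal ln(1 + 10000 × UMIs / cell total) and were used only as an alternative. Counts of all cells of a label were summed to counts per 1000000 UMIs (CPM). Genes with at least 20 UMIs over both labels were compared, and past the fold means 4-fold between labels and 2-fold between classes. A label at 0 UMIs was set to a floor of 3 UMIs over the label, and the ratio is then a bound. Named genes were those ranked highest or lowest by the log2 ratio with 10 CPM added, among genes with at least 100 UMIs (50 for classes) and found in 20% of cells of the higher group, without mitochondrial, ribosomal, haemoglobin, immunoglobulin and sex-linked genes, plus genes of the lists. Members and lists were chosen with earlier results of these data known. Doublets were scored with Scrublet (scanpy 1.11.5) and no cell was removed. Other tools were python 3.11.15, numpy 2.4.6, scipy 1.17.1, pandas 2.3.3 and matplotlib 3.10.9. On simulated counts, 96.5% of the intervals of the 200 changed genes held the true value for BECs against LECs (12558 genes) and 97.5% against fibroblasts (15310 genes). The simulated counts were Poisson draws of label sums, the model that the intervals assume. Clumping of UMIs in single cells was left out, so the simulation cannot show the coverage for the real counts. Alternatives were the minimum count, the deposited log values, thinning, the class genes and leaving out cells with other markers.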

Additional observations from a re-analysis of the deposited data

How the results depend on the processing

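Of 86 alternative values of the 10 main results, 71 stayed within the limit set and 15 moved. The count of genes at least 4-fold higher in BECs than in LECs (698) was 2568 with a minimum of 1 UMI, 391 with a minimum of 100 and 34 from differences of means of the deposited natural log values, and the count lower (824) was 530 with a minimum of 100 and 33 from those log values. Against fibroblasts the higher count (1155) was 3177, 731 and 50 under the same 3 settings, and the lower count (1626) was 77 from the log values. With a minimum of 1 UMI, a gene with 0 UMIs in BECs can count as higher, because the floor of 3 UMIs replaces the 0. C1qa, at 0 UMIs in BECs and 0.089 CPM in LECs, has such a bound of 3.94. The counts 2568 and 3177 can thus include genes not found in BECs. The share of the capillary class (31.5%) was 23.3% without Kdr among its genes and 27.2% in cells thinned to 2000 UMIs. The share of the venous class (37.8%) was 42.9% in thinned cells and 33.1% in the 290 BECs without a UMI of Prox1, Lyve1, Dcn, Col1a2 or Ptprc. In thinned cells the median share of BECs with a UMI was lower, at 9.66% for the capillary list and 18.4% (in place of 25.2%) for the arterial list. The minimum sets which genes are counted, so the counts move with it by construction. The log values are another measure, taken over the same 12558 and 15310 genes with the same 4-fold limit. The cause of the other moves was not tested. Among 264 alternative values of named genes, 176 stayed, 88 moved and none changed direction. Leaving out the 30 cells with lymphatic transcripts was chosen after seeing the data. No paired analysis was possible because each tissue has 1 library. Genes with few UMIs are limited by depth.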

Other observations

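The small intestinal library also holds 24 cells labelled Proliferating (219574 UMIs), which enter no comparison above. Mki67 and Top2a, genes of dividing cells, were at 988 and 1271 CPM there, against 0.91 and 3.65 CPM in BECs. Endothelial genes were present, with Pecam1 at 255 CPM and Cdh5 at 364 CPM, and so were the lymphatic genes Prox1 (401 CPM) and Lyve1 (947 CPM) and the fibroblast gene Dcn (2473 CPM). Of the blood endothelial markers, Flt1 and Selp had 0 UMIs, Vwf had 1 and Plvap had 3, and 0 of the 24 cells held both Plvap and Flt1.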
